A study of Mus musculus with 10 samples.

Results

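The genes described here encode the proteins of the cytosolic ribosome. They were measured in the hippocampus of male C57BL/6 mice at 30 months of age, with 5 mice fed a control diet and 5 kept long-term on calorie restriction. Each mouse had an Affymetrix oligonucleotide array of its own. The sources used here do not give the duration or degree of the restriction, and no transgene or other treatment is named for either diet. Members were taken by name alone: every probe set (a group of short probes summarised as 1 value) whose platform annotation gives exactly 1 gene symbol of the Rps or Rpl series, or Rplp0, Rplp1, Rplp2 or Rpsa. Kinases of the Rps6k family, mitochondrial ribosomal genes and pseudogenes were left out. The rule gave 49 probe sets for 35 genes, out of 12422 probe sets and 8251 singly named genes, with 27 probe sets for 18 small subunit genes and 22 for 17 large subunit genes. Another 39 probe sets list a ribosomal protein gene together with other symbols, mostly pseudogenes or predicted genes, and are given below as a group without names.

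A ribosome is built from a small subunit, which reads the messenger RNA, and a large subunit, which joins amino acids. Each subunit is a core of ribosomal RNA covered by many small, mostly basic proteins, named Rps in the small and Rpl in the large subunit. Their transcripts are short and very abundant, and many start with a run of pyrimidine bases through which the nutrient-sensing kinase mTOR controls their translation. Because that control acts on translation, transcript levels as measured here do not report it. In neurons ribosomes lie in the cell body and also in dendrites, near synapses. In whole hippocampus, fewer cells of a type and less RNA per cell cannot be told apart.

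Of the 49 probe sets, 32 for 25 genes had enough signal to be tested. The test was limma's moderated test on log2 signal, with p-values adjusted by Benjamini-Hochberg over all 7453 tested probe sets, and an adjusted p under 0.05 counts as passed. The remaining 17 had a mean log2 signal below 6.85, the lowest mean tested. They were the only probe sets of 10 genes, namely Rps14, Rps15, Rps20, Rps27l, Rpl32, Rpl35a, Rpl38, Rpl39, Rpl39l and Rpl7l1, and further probe sets of Rps4x, Rps4l, Rps29 and Rpl7. Nothing is said here of the change of those 10 genes. Each change is the calorie restricted mean minus the control mean in log2, with the median change over all tested probe sets, -0.15, taken off. The p-values test that difference before the median is taken off.

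In calorie restricted mice, 6 of the 32 tested ribosomal probe sets were higher, 0 were lower and 26 did not pass. The 6 stand for 5 genes: Rps28, Rps24 and Rps10 of the small subunit and Rpl41 and Rpl19 of the large subunit. Over all tested probe sets 11.8% passed, 4.11% as higher and 7.74% as lower, against 18.8% of the ribosomal ones, all as higher. At an unadjusted p under 0.05, 8 were higher and 5 lower in limma, or 13 of 32. Over all tested probe sets, 2352 of 7453 had such a p. Without control replicate 2 only 2 ribosomal probe sets passed, and without calorie restricted replicate 3 only 3 passed, all of them higher. The signals of the diets did not overlap in 7 ribosomal probe sets, or 21.9%, each with calorie restricted mice above control mice. Over all tested probe sets this was 14.3%, made up of 4.96% higher and 9.35% lower. With the brightest tested probe set standing for each gene, 20 of 25 genes had a relative change above 0, and the median was 0.24, where all tested probe sets have 0 by construction.

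**Figure D1:**
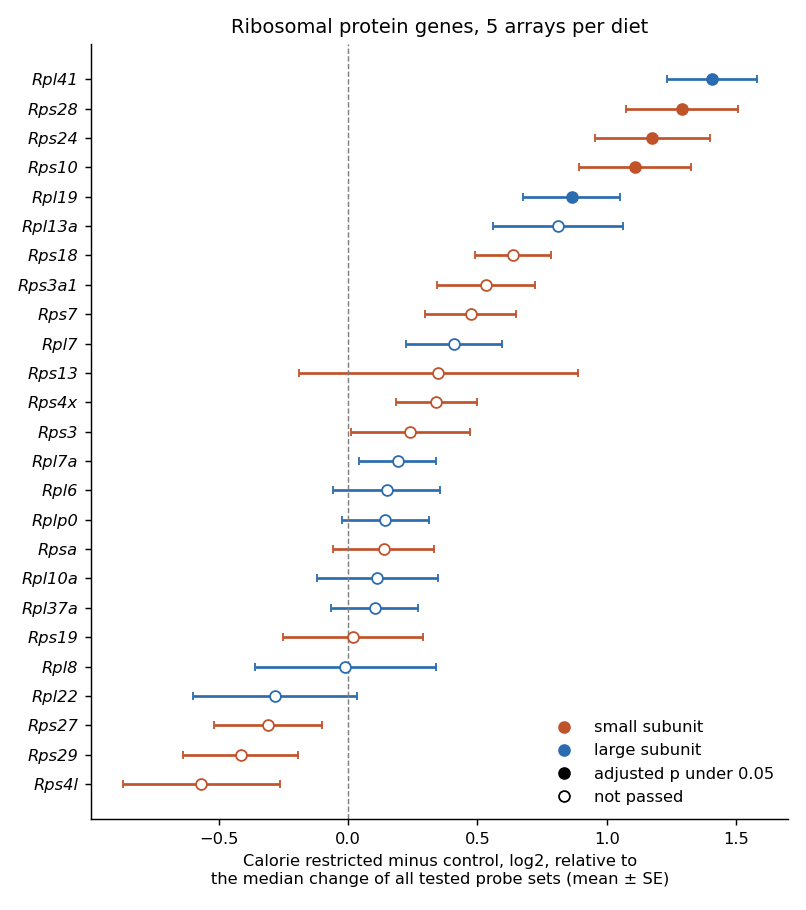
Relative log2 change, calorie restricted minus control, of the 25 tested ribosomal protein genes, each by its brightest probe set, with the standard error as a bar (5 arrays per diet). Orange marks small and blue large subunit genes, and the filled points are Rpl41, Rps28, Rps24, Rps10 and Rpl19, which passed the test, while the other 20 genes lie between -0.57 and 0.81.

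Rps28 encodes one of the smallest proteins of the small subunit, and both of its bright probe sets rose. The probe set 100758_at had log2 signals of 12.78, 11.97, 13.24, 13.15 and 12.80 in control mice 1 to 5. In calorie restricted mice 1 to 5 it had 13.62, 13.63, 14.52, 13.73 and 14.80. Every calorie restricted mouse lay above every control mouse, with replicates 3 and 5 the highest. The relative change was 1.42 ± 0.30 (SE, n = 5 per diet), or 2.68-fold, with a limma adjusted p of 0.0225. The probe set 98085_f_at had 14.08, 13.68, 14.21, 14.08 and 13.76 in control and 14.80, 15.02, 15.18, 14.70 and 15.77 in calorie restricted mice. Its groups did not overlap either, and it changed by 1.29 ± 0.22 (limma adjusted p = 0.0116). A dimmer probe set designed on the same source sequence, 98086_r_at, had 7.80, 7.93, 8.14, 8.03 and 8.18 in control mice and 8.75, 8.91, 7.86, 6.94 and 6.95 in calorie restricted mice. There, replicates 1 and 2 were above and replicates 4 and 5 below all control mice, and the change of 0.020 ± 0.39 (SE) did not pass.

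Rpl41 encodes a very short, highly basic peptide of the large subunit. Its probe set 100213_f_at had log2 signals of 15.02, 14.80, 14.79, 14.50 and 14.64 in control mice and 15.90, 15.93, 16.15, 15.70 and 16.32 in calorie restricted mice. The diets did not overlap and replicate 5 was again the highest. Rpl41 had the smallest adjusted p of the members, 0.00464 in limma, with a change of 1.40 ± 0.17 (SE), or 2.65-fold.

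Rps10, a small subunit protein near the messenger RNA channel, had signals of 12.41, 12.10, 12.69, 12.65 and 12.41 in control and 13.13, 12.97, 13.54, 13.30 and 14.09 in calorie restricted mice. All calorie restricted mice were above all control mice. It changed by 1.11 ± 0.22 (SE), or 2.16-fold, with a limma adjusted p of 0.0210. The calls of Rps10 and of the Rps28 probe set 100758_at were lost without control replicate 2 and also without calorie restricted replicate 3.

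Rpl19, a large subunit protein that bridges to the small subunit, had signals of 13.03, 12.70, 13.19, 13.33 and 13.00 in control and 13.64, 13.65, 14.29, 13.53 and 13.70 in calorie restricted mice. The diets did not overlap for this probe set, 97483_at, which changed by 0.86 ± 0.19 (SE; limma adjusted p = 0.0330). Its call was lost without each of the 5 control mice in turn and without calorie restricted replicate 3. The second Rpl19 probe set, 161961_at, was dim, with 6.36, 6.85, 8.08, 7.70 and 8.15 in control and 6.42, 7.65, 6.10, 5.84 and 5.90 in calorie restricted mice. The diets overlapped there, and its change of -0.89 ± 0.47 went the other way without passing (limma adjusted p = 0.149).

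Rps24, a small subunit protein, is named by 2 tested probe sets. The bright one, 97696_r_at, had 14.51, 13.97, 14.32, 14.34 and 13.83 in control and 15.01, 14.98, 15.21, 14.95 and 15.93 in calorie restricted mice, with no overlap. It changed by 1.18 ± 0.22 (SE; limma adjusted p = 0.0183). The call was lost without control replicate 2. The other Rps24 probe set, 93121_at, had 7.46, 7.01, 7.66, 7.41 and 7.49 in control and 7.34, 7.90, 7.12, 6.84 and 6.60 in calorie restricted mice, which overlap. It changed by -0.093 ± 0.30 and did not pass. The platform annotation lists the same source sequence for the bright Rps24 probe set and for the Rpl7 probe set 97695_s_at. Rpl7, a large subunit protein, had 12.27 to 12.71 in control and 12.33 to 13.25 in calorie restricted mice, a change of 0.41 ± 0.18 that did not pass. Which gene the bright probe set measures is therefore uncertain.

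**Figure D2:**
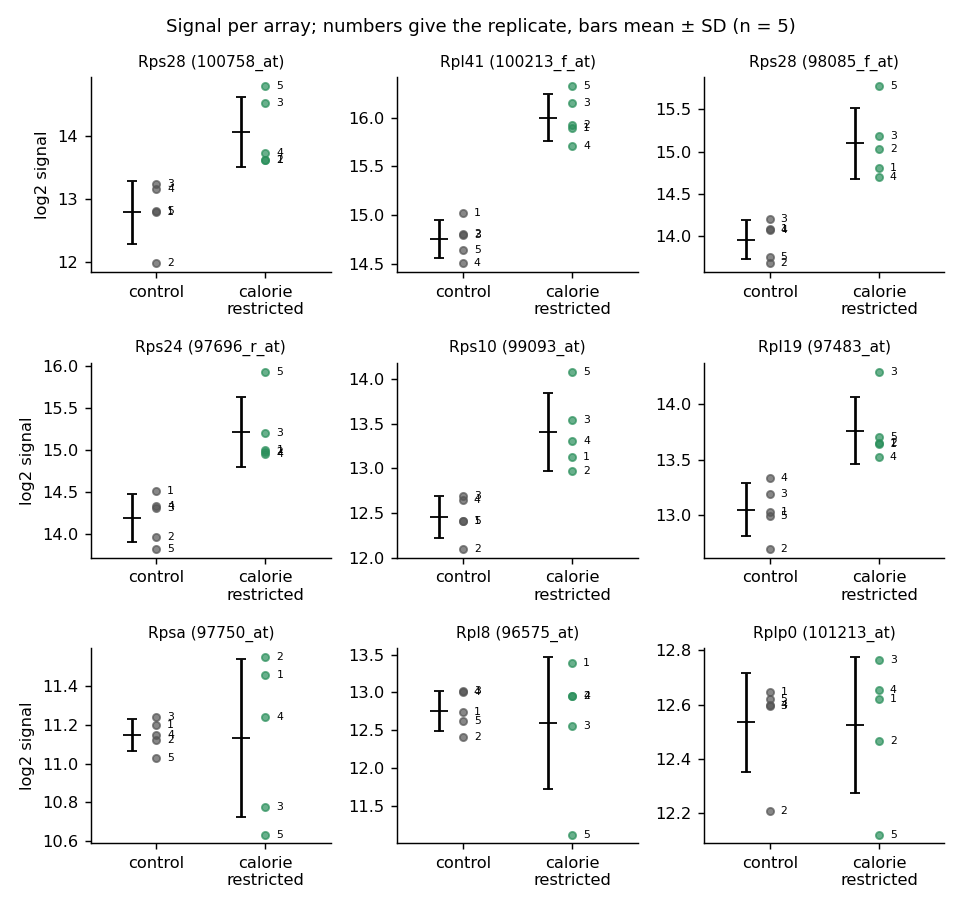
Log2 signal on each of the 10 arrays for the 6 ribosomal probe sets that passed and for Rpsa, Rpl8 and Rplp0, with the replicate number beside each point and the mean ± SD (n = 5) as a bar. In the panels of the 6 probe sets that passed the diets do not overlap, while for Rpl8 calorie restricted replicate 5 lies at 11.12, below all control mice.

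Among the other small subunit genes, Rps18 came closest to the threshold. It had 12.97, 12.67, 12.91, 12.95 and 12.94 in control and 13.50, 13.44, 13.37, 13.48 and 13.06 in calorie restricted mice. The diets did not overlap, although the change of 0.64 ± 0.15 (SE) had a limma adjusted p of 0.0514. Rps18 passed in 7 of 21 other settings, with limma adjusted p from 0.0138 to 0.0463. Among these were RNA quality as a covariate, at 0.74 (limma adjusted p = 0.0435), arrays centred on the median, and leaving out calorie restricted replicates 3 and 5. Those replicates, at 13.37 and 13.06, were the lowest calorie restricted arrays for Rps18, so leaving them out favoured the call. Under quantile normalization the Rps18 change shrank to 0.10, far from the threshold (limma adjusted p = 0.755). Rps3a1, Rps7, Rps4x and Rps3 had changes of 0.53, 0.47, 0.34 and 0.24 and did not pass. Rps13, near the subunit interface, had 7.51, 7.94, 7.72, 7.88 and 7.47 in control mice and 9.20, 9.54, 6.54, 7.42 and 6.80 in calorie restricted mice, so that its calorie restricted arrays lay on both sides of the controls. Its change of 0.35 ± 0.54 (SE) did not pass. Without calorie restricted replicates 3, 4 and 5, the arrays below all control mice, it passed as higher, at 1.76 (limma adjusted p = 0.00698). That call was set by the selection and rests on the 2 calorie restricted mice above all control mice. Rps19, which is mutated in Diamond-Blackfan anaemia, had 0.019 ± 0.27 (SE), and Rpsa, which also serves as a laminin receptor at the cell surface, had 0.14 ± 0.20. Rpsa gave 11.20, 11.12, 11.24, 11.15 and 11.03 in control and 11.46, 11.55, 10.78, 11.24 and 10.63 in calorie restricted mice. Replicates 1 and 2 were above and replicates 3 and 5 below every control mouse, and the 95% interval of the change ran from -0.29 to 0.56.

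Several small subunit genes had values below 0. Rps29 and Rps27, both of which carry a zinc-binding motif, had -0.41 ± 0.22 and -0.31 ± 0.21 (SE), each with 4 of 5 calorie restricted mice below all control mice. Rps4l, a paralog of Rps4x, had -0.57 ± 0.30. None of these passed with all arrays. Without calorie restricted replicate 2, Rps29 passed as lower, at -0.57 (limma adjusted p = 0.0294). That replicate was its only calorie restricted array not below all control mice, so the selection shaped the call. A second Rps4x probe set, 161654_r_at, had the lowest change of the 32 tested members, -1.24 ± 0.95. Its signals were 7.78, 8.55, 6.44, 6.72 and 8.26 in control and 7.50, 8.16, 3.18, 7.91 and 4.03 in calorie restricted mice. The low mean comes from replicates 3 and 5, and the bright Rps4x probe set had 13.35 and 13.01 on the same arrays, within or above the control range. With RNA quality as a covariate the dim probe set had 0.98.

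Among the other large subunit genes most changes were close to the median of all probe sets. Rplp0, the scaffold of the stalk that recruits elongation factors and a common reference gene, had 12.65, 12.21, 12.60, 12.60 and 12.62 in control and 12.62, 12.47, 12.77, 12.65 and 12.12 in calorie restricted mice. The diets overlapped, and the change of 0.14 ± 0.17 (SE) had a 95% interval from -0.22 to 0.51. Rplp1 and Rplp2 have no probe set with that symbol alone among the members. Rpl37a, Rpl10a, Rpl6 and Rpl7a had 0.10, 0.11, 0.15 and 0.19. Rpl13a, a large subunit protein that can also leave the ribosome to repress translation in inflammation, had 9.30, 8.97, 9.12, 8.92 and 9.44 in control and 9.38, 9.40, 9.84, 9.71 and 10.71 in calorie restricted mice, a change of 0.81 ± 0.25 that did not pass (limma adjusted p = 0.0997). A second Rpl10a probe set, 161327_f_at, had 0.91 ± 0.45 and did not pass.

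Rpl8, a protein next to the peptidyl transferase centre, had 12.73, 12.41, 13.01, 13.01 and 12.62 in control and 13.38, 12.95, 12.56, 12.95 and 11.12 in calorie restricted mice. Its mean change of -0.011 ± 0.35 (SE) joins 1 array above all control mice with 1 below them. Rpl22, an RNA-binding protein of the large subunit, had negative values in both of its probe sets. The dimmer one, 92856_at, had 8.39, 9.42, 8.43, 8.55 and 8.55 in control and 8.39, 8.04, 7.53, 5.68 and 7.35 in calorie restricted mice, with 4 of 5 calorie restricted mice below all control mice. It changed by -1.12 ± 0.44 and the brighter one, 92857_at, by -0.28 ± 0.32, and neither passed (limma adjusted p = 0.0766 and 0.361). Without calorie restricted replicate 1 the dimmer one passed as lower, at -1.36 (limma adjusted p = 0.0405). That replicate was its only calorie restricted array not below all control mice, so the selection shaped the call.

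Small and large subunit genes were compared by their counts and medians, with no test over the list. Of 14 tested small subunit genes 3 were higher and 0 lower, or 21.4%, and of 11 large subunit genes 2 were higher and 0 lower, or 18.2%. The median relative change was 0.35 for small and 0.15 for large subunit genes, which differ by 0.20. Without calorie restricted replicate 1 the difference was 0.059 and without replicate 2 it was 0.11. The large subunit median was 0.090 without calorie restricted replicate 3 and 0.27 without replicate 5. The difference did not keep its sign from array to array. Taking each gene's deviation from its control mean on each array, the small subunit median minus the large subunit median was 0.20, 0.20, 0.086, -0.13 and -0.31 in calorie restricted mice 1 to 5. In control mice it ran from -0.050 to 0.064. The mean of the 5 calorie restricted values was 0.0076 ± 0.22 (SD, n = 5), so the difference between the medians lay within the spread between arrays. Relative to each array's median deviation over all tested probe sets, the large subunit median was steadier. It ran from 0.21 to 0.36 on the calorie restricted arrays against -0.27 to 0.097 on control arrays. The small subunit median ran from -0.024 to 0.50 on the calorie restricted arrays.

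Members diverged more from one another in calorie restricted than in control mice. The SD over the 25 genes of the deviation from the control mean was 0.14 to 0.24 on control arrays and 0.49, 0.48, 0.73, 0.43 and 1.08 on calorie restricted arrays 1 to 5. Deviations of control arrays are taken from their own mean, which makes them smaller. The median over the genes was taken relative to each array's median deviation over all tested probe sets. It was 0.28 ± 0.10 (SD, n = 5) in calorie restricted and -0.023 ± 0.15 in control mice, without overlap. The lowest array was control replicate 2 at -0.27. The array median taken off was -0.25 to -0.068 in calorie restricted and -0.0050 to 0.023 in control mice. Without taking it off, the diets overlapped.

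RNA quality moved with the diet on the same arrays. The 3' signal of the Gapdh control probe sets was 1.29, 1.24, 82.7, 1.98 and 160.7 times the 5' signal in calorie restricted mice 1 to 5, against 0.815 to 1.53 times in control mice. For Actb it was 2.32, 2.38, 16.4, 4.18 and 29.7 against 1.05 to 1.61. A large ratio is seen when RNA is broken or incompletely copied. Calorie restricted replicates 3 and 5 also stood apart in the members, in deviations relative to each array's median deviation over all tested probe sets. In 11 of 25 genes both lay above replicates 1, 2 and 4, in 8 both lay below them, and in 6 neither held. This count was not made over all tested probe sets, so it shows nothing particular to the members. On this relative scale Rps10 averaged 1.54 above its control mean in replicates 3 and 5 and 0.76 in replicates 1, 2 and 4. Rpl22 averaged -0.97 and 0.12, and Rpl8 -0.74 and 0.42, in the same order. The bacterial spike-in probe sets averaged 11.12 ± 0.56 (SD, n = 5) over control arrays and 13.05 ± 0.47 over calorie restricted arrays, in log2 and without overlap. Leaving out replicates 3 and 5, 7 of 32 probe sets were higher and 0 lower, with all 6 named above among them, and the median change over genes was 0.31. The RNA quality value, the mean log2 3' minus 5' signal of Gapdh and Actb, was -0.12 to 0.45 in control mice. In calorie restricted mice it was 0.78 to 6.11, without overlap. Diet and RNA quality therefore cannot be told apart by a fit with this covariate. In that fit 2 passed as higher, Rpl41 at 1.12 (limma adjusted p = 0.0214) and Rps18, and 0 as lower. Unadjusted p-values under 0.05 were found for 10 higher and 0 lower. The median over genes was 0.37 there.

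**Figure D3:**
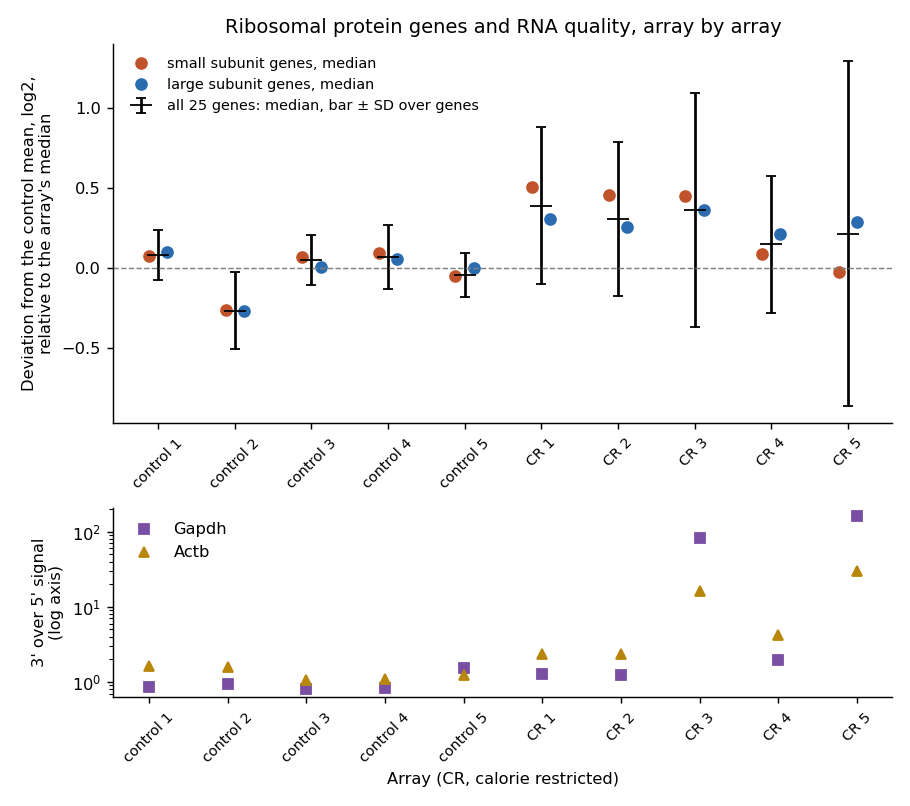
Upper panel, the median deviation of the 25 ribosomal protein genes from their control means on each array in log2, relative to that array's median over all tested probe sets, with a bar of ± SD over the genes and the small (orange) and large (blue) subunit medians beside it. Lower panel, the 3' over 5' signal of Gapdh and Actb on a log axis, where calorie restricted (CR) replicates 3 and 5 reach 82.7 and 160.7 for Gapdh and also show the widest bars above, 0.73 and 1.08.

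Signal strength went with the members' changes. The 6 probe sets that passed had mean log2 signals above 12, a bound chosen after their values were seen, and 17 members lay above it. Of those 17, 6 were higher and 0 lower, or 35.3%, with a median change of 0.47. Of all 323 tested probe sets above 12, 75 were higher and 0 lower, or 23.2%, with a median of 0.54. Of the 15 members below 12, 0 were higher and 0 lower in limma. The median change of these 15 was -0.093, and 6 of them had an unadjusted limma p under 0.05. Of the 6, Rpl13a was higher. Rps27, Rps29, Rps4l, Rpl19 161961_at and Rpl22 92856_at were lower. Of all 7130 tested probe sets below 12, 231 were higher and 577 lower, and their median was -0.023. An unadjusted p under 0.05 was found for 2207 of the 7130. In the brightest 1491 of all tested probe sets, which hold 21 of the 32 members, 11.1% were higher and the median was 0.28. The median of the bright members was thus no higher than that of all equally bright probe sets.

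**Figure D4:**
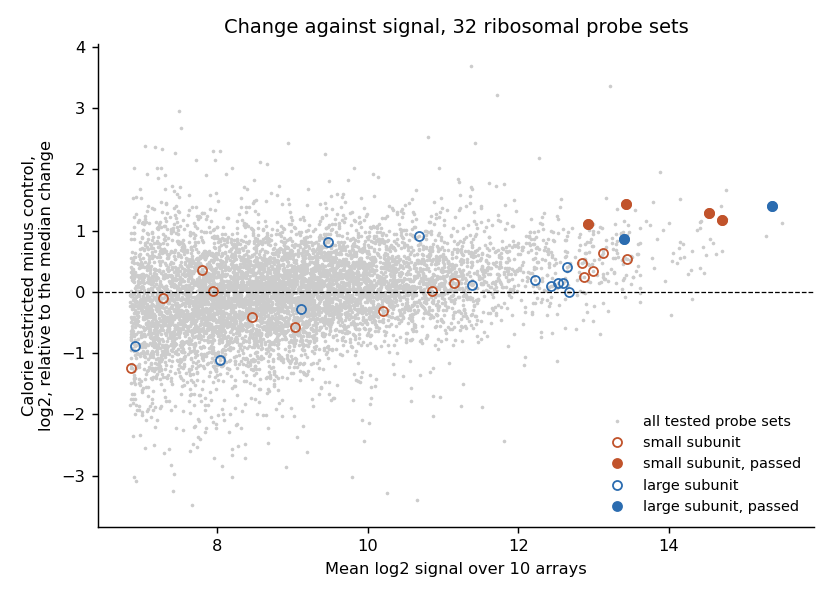
Relative log2 change against mean log2 signal over 10 arrays for all 7453 tested probe sets (grey) and the 32 tested ribosomal ones (orange small, blue large subunit, filled where passed). The grey cloud rises above 0 at high signal, with a median of 0.54 above a signal of 12, and the 6 ribosomal probe sets that passed lie in that range.

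The result also depended on the scaling between arrays. Under quantile normalization, which gives every array the same distribution of signals, 0 of 32 ribosomal probe sets passed in limma. Unadjusted p-values under 0.05 were found for 4 higher and 2 lower. The median change over genes was then -0.18, with small subunit genes at -0.11 and large subunit genes at -0.23, so the direction of the group turned. The probe sets that had passed kept a positive value there, from 0.25 for Rps24 to 0.83 for the Rps28 probe set 100758_at, with limma adjusted p from 0.0616 to 0.372. Over all tested probe sets 601 passed under quantile normalization, 322 higher and 279 lower, where 306 and 577 did with the deposited scaling. Over all tested probe sets the median of the change was -0.020 there. With each array centred on its median it was 0.062, the split over all probe sets was 575 higher and 266 lower, and 7 ribosomal probe sets were higher and 0 lower, the 6 named above among them.

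**Figure D5:**
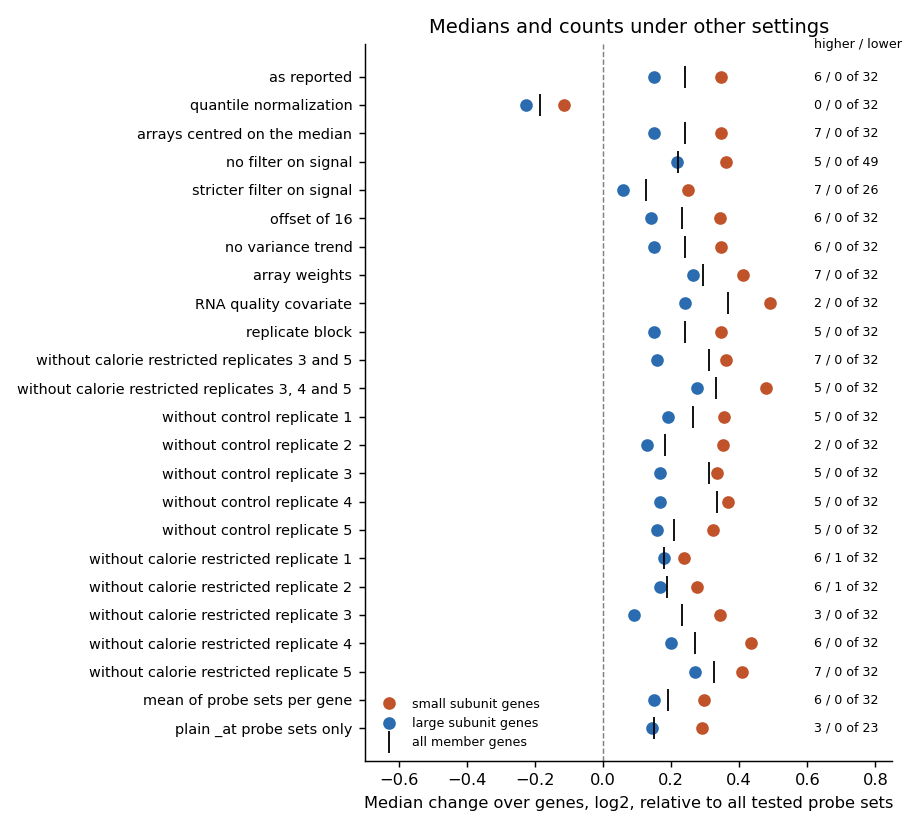
Median relative log2 change of small (orange), large (blue) and all (black bar) tested ribosomal protein genes under each setting, with the count of probe sets higher and lower out of those tested at the right. The medians lie above 0 in every setting shown but quantile normalization, where they are -0.11, -0.23 and -0.18 and 0 probe sets pass.

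Probe sets that also list other symbols showed a like pattern. Of the 39, 35 were tested, and 10 were higher, 0 lower and 25 did not pass, with a median change of 0.44. They were bright, with a median log2 signal of 12.88. The share higher was 28.6%, against 4.11% of all tested probe sets. Of all tested probe sets above a signal of 12, 23.2% were higher, with a median change of 0.54. The median deviation of these 35 was taken relative to each array's median deviation over all tested probe sets. It was 0.44, 0.40, 0.59, 0.23 and 0.85 in calorie restricted mice 1 to 5 and -0.22 to 0.18 in control mice. Calorie restricted replicate 5 was the highest and the diets did not overlap. Without taking the array median off, they overlapped. Calls differed by the type of probe set in both groups. An s, f, i or r in the identifier marks a design that may detect more than 1 transcript or that used fewer or less specific probes. Of these, 3 of 9 tested members and 6 of 13 tested with several symbols were higher. Of the plain ones, 3 of 23 and 4 of 22 were. Over all tested probe sets 6.77% of those with such a letter or a g were higher, and 3.47% of the plain ones. The 3 members with a letter that were higher, of Rpl41, Rps24 and Rps28, were also the brightest members. Their mean log2 signals were 15.4, 14.7 and 14.5. Signal level was not taken into account in these counts by type.

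To show what the transcripts of the genes that passed have at their start, 30 bases around the RefSeq transcript start are printed for them and for the 3 bright genes with changes nearest 0 that have an entry, Rpl37a, Rplp0 and Rpl6. Each line runs 5′ to 3′ on the gene's strand in build GRCm38.p6, with 15 bases before and 15 after the annotated start. Capitals mark a C followed by at least 4 bases that are C or T, before or after the annotated start. Pyrimidine-tract transcripts begin with a run of this kind.

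Rpl41, chr10:128549154-128549183, minus strand: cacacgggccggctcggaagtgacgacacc

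Rps28, chr17:33824548-33824577, minus strand: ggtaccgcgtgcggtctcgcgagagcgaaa

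Rps24, chr14:24490663-24490692, plus strand: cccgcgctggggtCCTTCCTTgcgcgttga

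Rps10, chr17:27635230-27635259, minus strand: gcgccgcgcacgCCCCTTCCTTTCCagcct

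Rpl19, chr11:98026695-98026724, plus strand: tgaccaaacgCCCTCactgcgcatgtgcgc

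Rpl37a, chr1:72711245-72711274, plus strand: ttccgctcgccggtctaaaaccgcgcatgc

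Rplp0, chr5:115559452-115559481, plus strand: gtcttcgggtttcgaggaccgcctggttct

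Rpl6, chr5:121204486-121204515, plus strand: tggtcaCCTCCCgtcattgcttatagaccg

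Rps10 has the longest run of these, 13 bases, next to its start, while Rpl41 and Rps28, whose changes were the largest, have none in this window. Of the 35 member genes, 28 have an entry in the RefSeq table used, and 14 of the 28 windows, or 50%, hold such a run on the gene's strand, against 36.4% of the 27025 genes with an entry. The run was found for 3 of the 5 genes that passed and for 7 of 16 tested genes that did not. These counts take a run anywhere in the window. They include runs wholly before the annotated start, as in Rpl19 and Rpl6, which lie outside the annotated transcript. The letters CGGAAG, the core bound by ETS-family factors, were searched on both strands of 300 bases, 250 before and 50 after the start. They occur in 19 of 28 member genes, or 67.9%, and in 17.2% of all genes, and in 4 of the 5 genes that passed and 10 of the 16 that did not. A match describes these letters and shows no binding or control, and the annotated start may lie some bases from the true one.

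Other genes of translation, from lists drawn up by function, are given beside the 11.8% of all tested probe sets that passed. The shares were 6.9% of initiation factor genes, 0% of elongation and termination, 7.69% of ribosome-bound and ubiquitin-fusion, 8.57% of assembly, 10.7% of mitochondrial ribosomal protein and 8.33% of mTOR and S6 kinase genes. All of them lie near or below that background, which counts both directions. Of 29 tested initiation factor genes 0 were higher and 2 lower. These were Eif4b, a helicase cofactor whose own transcript has a pyrimidine tract, at -1.31 ± 0.35 (SE; limma adjusted p = 0.0244), and Eif1ax, which helps scan for the start codon, at -0.54 ± 0.19 (adjusted p = 0.0361). Of 12 elongation and termination factor genes 0 passed in limma, and 2 had an unadjusted p under 0.05. Their 2 best known members, named after their values were seen, were Eef1a1, which delivers aminoacyl-tRNA, at 0.67 ± 0.19, and the translocase gene Eef2 at -0.52 ± 0.42. The median changes of the 2 lists were -0.048 and 0.12. Of 13 genes of ribosome-bound and ubiquitin-fusion proteins 0 were higher and 1 lower, the signal recognition particle gene Srp54b at -0.81 ± 0.23. Fau, whose product is cleaved into a small subunit protein, had -0.87 ± 0.38 and did not pass, and is likewise named after its value was seen.

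Of 35 tested genes of ribosome assembly, 2 were higher, 1 lower and 32 did not pass, with a median change of 0.29. Nop56 and Gar1, of the nucleolar particles that modify ribosomal RNA, rose by 1.13 ± 0.20 and 1.07 ± 0.21 (SE; limma adjusted p = 0.0148 and 0.0213), and Rrp9, of the particle that processes the small subunit RNA, fell by 0.70. Of 56 mitochondrial ribosomal protein genes, which are encoded apart from the cytosolic ones and serve the organelle's own translation, 5 were higher, 1 lower and 50 did not pass, with a median of 0.26. Counted in either direction, these 10.7% are close to the background of 11.8%. By direction they differ, since of all tested probe sets 4.11% were higher and 7.74% lower. Mrpl45, Mrpl24, Mrps21 and Mrpl23 rose by 1.06, 1.03, 0.98 and 0.86, Mrps25 by 2.12, and Mrpl39 fell by 0.63. Of 12 genes of the mTOR and S6 kinase list 0 were higher and 1 lower, the Rag GTPase gene Rragd at -2.37 ± 0.38. The 12 include Pdk1, a pyruvate dehydrogenase kinase gene outside that pathway, which did not pass. Control probe sets for the ribosomal RNA of the small subunit overlapped between the diets. The one at its 3' end had log2 signals of 8.67 to 11.42 in control and 8.65 to 10.99 in calorie restricted mice.

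Markers of hippocampal neurons were present, with 10 of 12 above the signal filter, among them the synaptic gene Snap25 at a mean log2 signal of 13.82 in control and 14.29 in calorie restricted mice. Of the 10, 0 were higher and 3 lower, with a median change of -0.29. Beside this and the marker counts below, 4.11% of all tested probe sets passed as higher and 7.74% as lower. Syt1, a synaptic vesicle calcium sensor, had -3.40 ± 0.72 (SE), Nptx1 -1.73 ± 0.34 and Neurod6 -1.11 ± 0.34. The log2 of the summed linear signal of the neuronal list was 14.76 to 15.17 in control and 14.47 to 14.99 in calorie restricted mice. For astrocytes it was 13.58 to 14.10 and 13.48 to 14.24, for oligodendrocytes 14.22 to 14.45 and 14.10 to 14.61, for microglia 12.27 to 12.79 and 11.79 to 12.58, and for endothelium 9.97 to 10.33 and 10.12 to 10.68. For choroid plexus, a tissue beside the hippocampus, it was 11.36 to 13.43 and 8.97 to 13.87, and for red blood cells 11.78 to 13.73 and 11.86 to 12.93. Of the tested markers 1 of 5 for astrocytes, 1 of 6 for microglia and 1 of 3 for choroid plexus were lower and 0 higher, and 0 of 4, 0 of 3 and 0 of 2 passed for oligodendrocytes, endothelium and red blood cells, with 2, 0 and 0 at an unadjusted limma p under 0.05. The summed ranges overlap between the diets, but such sums weigh the brightest genes of a list most. The part of these cell types in the ribosomal values was not tested.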

How the data were processed

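The deposited table gives 1 intensity per probe set and array on a linear scale, which the authors computed with MAS5, per the submitters' processing notes. The sources used here name no MAS5 version or settings. With the lowest and highest 2% left out, the mean intensity was 500 on each array. Values under 1 (41 of 124880) were set to 1 and log2 was taken. Affymetrix control probe sets, and probe sets below the 40th percentile of mean log2 signal, were left out of the test. The comparison of the diets used R 4.3.3 with limma 3.58.1 (lmFit, eBayes with a variance trend, 5 arrays per diet, no covariate), with Benjamini-Hochberg adjustment over all tested probe sets. The fit was tested on simulated data. The arrays' number limits the precision. All 49 members matched RefSeq by gene number. The brightest tested probe set stands for a gene.

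The members, lists and settings were chosen with earlier results of these data known. Values of all arrays are given for members that passed, their opposed probe sets, Rplp0, Rpsa and the 3 lowest changes among tested members, and for Rps18, Rpl8, Rps13, Rpl13a and a dim Rps28 probe set, picked after their values were seen. RNA quality is the mean log2 3' minus 5' signal of the Gapdh and Actb control probe sets. Positions are of RefSeq entries, not of probes. The sources used here give no scan dates.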

Additional observations from a re-analysis of the deposited data

Results flagged for a closer look

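In 10 of 68 groups of 5 arrays, 1 array lay far from the other 4 by Dixon's test, which chance does in about 1 of 20 groups. Among calorie restricted mice, replicate 5 was the lowest for Rps18 at 13.06 (the next was 13.37), Rps19 at 10.29 (10.82) and Rpl10a 100711_at at 10.45 (11.52), and the highest for Rps24 97696_r_at at 15.93 (15.21). Replicate 3 was the highest for Rpl19 97483_at at 14.29 (13.70). Among control mice, replicate 2 was the lowest for Rps18 at 12.67 (12.91), Rpl7a at 11.84 (12.23) and Rplp0 at 12.21 (12.60), and the highest for Rpl22 92856_at at 9.42 (8.55). Control replicate 1 was the highest for Rpl6 at 12.77 (12.58).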

How the results depend on the processing

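Leaving out 1 array at a time, the count of ribosomal probe sets that passed ran from 2, without control replicate 2, to 7, and that of all probe sets from 253, without control replicate 2, to 1251, without calorie restricted replicate 2. Ribosomal counts were 0 under quantile normalization, 2 with RNA quality as a covariate and 3 with only plain probe sets. Those of all probe sets were 333 with RNA quality as a covariate, 540 with the replicate block and 558 without calorie restricted replicates 3, 4 and 5, a setting added after the data were seen. The median change of ribosomal genes was -0.18 under quantile normalization, 0.13 with a filter at the 60th percentile and 0.37 with RNA quality as a covariate. Same-numbered arrays had correlations from -0.076 to 0.17 and 0 of 5 control arrays matched their own number best. This check showed no pairing of the mice by number but cannot exclude one. The replicate block left 5 ribosomal probe sets. The small minus large subunit difference moved by less than its spread between arrays under every setting run. Of single probe sets none changed to a call in the opposite direction. Rpl41 lost its call under quantile normalization only.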
